A study of Mus musculus with 8 samples.

Results

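The cytochrome P450 genes other than those driven mainly by the Ah receptor were followed in mouse skin. P450 enzymes are heme proteins, mostly of the endoplasmic reticulum and mitochondria, that oxidize lipids and foreign chemicals with electrons passed on by a reductase. In skin they are known for building the epidermal lipid barrier, for making and breaking down retinoic acid, vitamin D, sterols and eicosanoids, and for oxidizing chemicals that reach the surface. A gene was included if its array probe, named through its RefSeq accession, carried a symbol of the *Cyp* series, was no pseudogene, and was not *Cyp1a1*, *Cyp1a2*, *Cyp1b1* or *Cyp2s1*. Its probe also had to be well above background on at least 2 of the 8 arrays, and the brightest probe stood for the gene, so that members were selected on signal over background and probes chosen by brightness. Of 90 eligible P450 genes, 59 met this rule, out of 17200 genes that met the same detection rule and 21095 named genes on the array. The rule used the signal itself, so that the detection of these genes is a description and not a finding.

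The samples were whole skin of female mice, and each group had 2 arrays. The groups were *CD109*-/- skin treated with DMBA, *CD109*+/+ skin treated with DMBA, untreated *CD109*-/- skin and untreated *CD109*+/+ skin, all taken after 24 h. CD109 is a cell surface protein that binds transforming growth factor-β, and DMBA is a polycyclic hydrocarbon that starts skin tumours once P450 enzymes have oxidized it. The untreated skin had received acetone, per the labels, and both genotypes were on the FVB/N background, per the study's methods. The age of the animals and the DMBA dose are not given in the labels, nor is it stated that the 2 arrays of a group came from separate mice, so that the spread between them may be technical. The study used these arrays to look for differences between the genotypes with and without DMBA.

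The signal was a 1-colour intensity, given here as its log2 value relative to the 75th percentile of the array (log2 signal). That percentile was an intensity of 382 to 455 for DMBA-treated *CD109*-/- skin, 554 to 626 for DMBA-treated *CD109*+/+ skin, and 556 to 608 for the untreated arrays. The targeted gene, *Cd109*, checks the labels. Its log2 signal was -8.06 and -7.70 in DMBA-treated *CD109*-/- skin, against 0.84 and 1.42 in DMBA-treated *CD109*+/+ skin. On the arrays labelled untreated *CD109*-/- it was 1.66 and -8.11, against 2.06 and -6.49 on those labelled untreated *CD109*+/+. Replicate 1 labelled untreated *CD109*-/- and replicate 2 labelled untreated *CD109*+/+ therefore ran against their labels, and every result that includes untreated skin is open to this. All values are given with the labels as deposited. They are set beside an arrangement in which these 2 arrays are exchanged, which describes the arrays and is no independent evidence, since the exchange rests on a signal of the same arrays. The 4 DMBA arrays lay in 1 row of the slide and the untreated arrays in the other, so that the treatment cannot be told apart from the slide row. All arrays labelled *CD109*+/+ lay in slide columns 1 and 2, and all labelled *CD109*-/- in columns 3 and 4. The labelled genotype, also after DMBA, therefore cannot be told apart from the slide column. Basal keratinocyte genes averaged a log2 signal of 4.61 to 5.34 and fibroblast genes 6.18 to 6.81 over the 8 arrays. Inner root sheath genes of the growing hair (8 of 8 listed genes measured) averaged 4.02 and 6.40 in DMBA-treated *CD109*-/- skin, against -3.79 and -3.88 in DMBA-treated *CD109*+/+ skin. They averaged -3.19 and 5.74 on the arrays labelled untreated *CD109*-/-, against -3.07 and 6.24 on those labelled untreated *CD109*+/+. The follicle genes thus split the 8 arrays the way *Cd109* did, and in bulk skin a different share of a cell type cannot be told from a different RNA level per cell.

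*Cyp4f18* and *Cyp2c38* were highest in DMBA-treated *CD109*+/+ skin, and *Cyp27b1* and *Cyp4v3* split the arrays with *Cd109* in opposite directions. The promoters of these 4 genes are shown as examples. Each runs from 250 bases before to 50 bases after the gene start in RefSeq (GRCm38.p6), at chr8:72009577-72009876, minus strand, at chr19:39463026-39463325, minus strand, at chr10:127047996-127048295, plus strand, and at chr8:45333114-45333413, minus strand. Capitals mark the motif GCGTG on either strand, the core to which the Ah receptor binds. In this window the motif was found in *Cyp4v3* and not in the other 3 promoters.
Cyp4f18: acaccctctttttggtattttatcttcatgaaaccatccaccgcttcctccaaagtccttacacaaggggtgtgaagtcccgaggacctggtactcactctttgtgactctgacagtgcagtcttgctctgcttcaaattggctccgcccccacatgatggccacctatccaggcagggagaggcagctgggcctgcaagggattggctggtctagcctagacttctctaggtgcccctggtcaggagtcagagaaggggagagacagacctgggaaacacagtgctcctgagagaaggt
Cyp2c38: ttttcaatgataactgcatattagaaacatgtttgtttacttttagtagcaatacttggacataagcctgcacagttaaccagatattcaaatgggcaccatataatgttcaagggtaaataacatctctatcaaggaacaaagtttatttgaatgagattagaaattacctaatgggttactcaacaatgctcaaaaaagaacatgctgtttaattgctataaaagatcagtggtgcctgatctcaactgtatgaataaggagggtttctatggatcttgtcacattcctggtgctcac
Cyp27b1: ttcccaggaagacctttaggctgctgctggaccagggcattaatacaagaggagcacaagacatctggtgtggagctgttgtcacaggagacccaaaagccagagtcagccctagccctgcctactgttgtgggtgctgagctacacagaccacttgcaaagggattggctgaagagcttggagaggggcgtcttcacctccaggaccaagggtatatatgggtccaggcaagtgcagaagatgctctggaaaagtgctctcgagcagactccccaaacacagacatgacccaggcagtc
Cyp4v3: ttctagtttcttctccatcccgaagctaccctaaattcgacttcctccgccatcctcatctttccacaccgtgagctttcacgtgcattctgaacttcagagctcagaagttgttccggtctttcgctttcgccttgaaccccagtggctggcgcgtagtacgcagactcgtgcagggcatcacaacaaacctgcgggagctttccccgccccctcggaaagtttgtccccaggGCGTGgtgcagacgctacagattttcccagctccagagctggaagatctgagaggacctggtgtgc
Of the 59 genes, 46 had an entry, with 54 promoters in all. *Cyp7b1* was among those without one. *Cyp26b1*, which also split the arrays with *Cd109*, had a promoter without the motif. The motif was present in 13 of these 54 (24.1%), against 10639 of 32851 promoters of all genes (32.4%). A match is a description of the letters only.

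Of the 59 genes, 45 were well above background on all 8 arrays and 14 on 2 to 7 of them. *Cyp2j11*, a fatty acid epoxygenase, was the only one detected on exactly 2 arrays, at -5.13 in *CD109*-/- replicate 2 and -6.25 in *CD109*+/+ replicate 2, both treated with DMBA. Just outside the rule lay 7 genes detected on 1 array (*Cyp3a16*, *Cyp4a29*, *Cyp2w1*, *Cyp2c67*, *Cyp4a32*, *Cyp2j5* and *Cyp2u1*), whose log2 signals over the 8 arrays ran between -8.55 and -4.32. A further 24 were detected on none. All 59 genes are drawn by role in the heat map of log2 signals. By role, 20 of 26 xenobiotic-metabolizing genes were measured, 12 of 21 arachidonate epoxygenases, 12 of 20 genes of the Cyp4 fatty acid family, 5 of 7 of sterol and bile acid metabolism, 4 of 6 of steroid hormone synthesis, 2 of 3 of vitamin D metabolism, 1 of 3 that degrade retinoic acid and 3 of 4 others. Signals of different probes do not order genes by expression, so that each gene is compared only with itself.

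**Figure D1:**
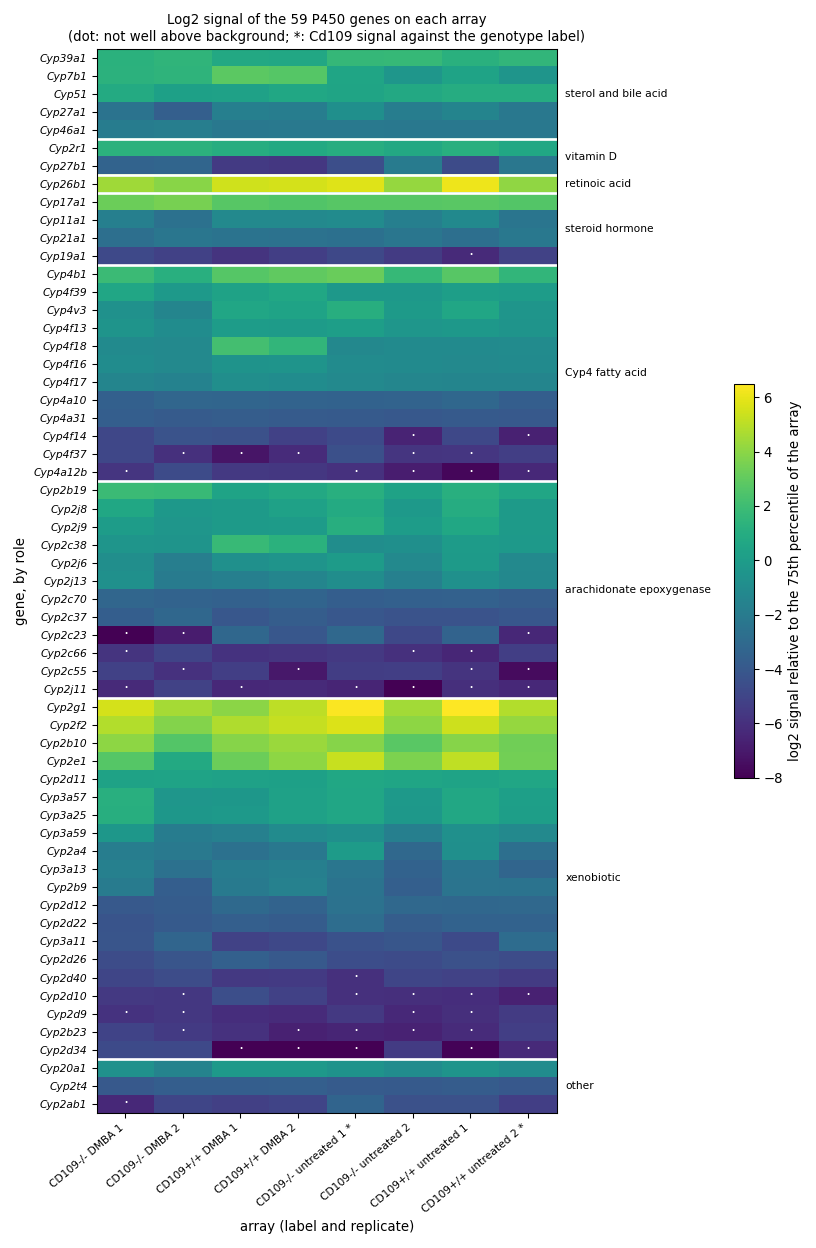
Log2 signal (colour scale, relative to the 75th percentile of the array) of the 59 P450 genes (rows, by role) on the 8 arrays (columns); a dot marks a signal not well above background and an asterisk an array whose Cd109 signal runs against its genotype label. Cyp4f18 and Cyp2c38 stand out in the 2 columns of DMBA-treated CD109+/+ skin, and Cyp27b1 and Cyp2d34 are dark on the same 4 arrays, 2 of DMBA-treated CD109+/+ skin and replicate 1 of either untreated label.

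The first comparison asked which P450 genes differed between the genotypes after DMBA, and it involves no array in doubt except through the shared error estimate. *Cyp4f18*, a Cyp4 enzyme that inactivates leukotrienes in mouse neutrophils, was lower in *CD109*-/- skin. Its log2 signal was -1.07 and -1.17 in DMBA-treated *CD109*-/- skin, against 2.18 and 1.55 in DMBA-treated *CD109*+/+ skin. The untreated arrays labelled *CD109*-/- gave -1.21 and -1.05, against -1.04 and -1.03 on those labelled untreated *CD109*+/+. Thus both values of DMBA-treated *CD109*+/+ skin lay above the other 6, and those 6 lay within a narrow range whatever their label. The log2 fold change between the genotypes after DMBA was -2.99 (SE 0.24, adjusted p = 0.036 in limma over all 36913 probes tested, n = 2 arrays each), with all 4 array pairs in the same direction. It was the only one of 56 P450 genes tested to pass at an adjusted p under 0.05, while 0.0813% of all probes did. At an unadjusted p under 0.05 there were 16 of the 56, 4 of them higher in *CD109*-/- skin, beside 9643 of all 36913 probes. The detection filter fixed the direction of *Cyp2d10* and *Cyp2d34* here. The median log2 fold change was -0.02 over the 56 genes and 0.12 over all probes.

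The call of *Cyp4f18* was lost when any 1 of the 8 arrays was left out, with adjusted p between 0.053 and 0.271, although its log2 fold change stayed between -3.30 and -2.67. It was also lost, at an unchanged fold, without both arrays in doubt (adjusted p = 0.0673). Neutrophil marker genes (6 of 7 listed measured) averaged 0.32 and -0.67 in DMBA-treated *CD109*-/- skin, against 1.31 and 0.49 in DMBA-treated *CD109*+/+ skin. They averaged -2.28 and -1.53 on the arrays labelled untreated *CD109*-/-, against -2.78 and -0.94 on those labelled untreated *CD109*+/+. The neutrophil list was thus higher on all 4 DMBA arrays than on the untreated ones, and *Cyp4f18* on 2 of them. Between the genotypes after DMBA the median log2 fold change of the list was -1.24, with 1 of 5 tested genes higher in *CD109*-/- skin. The part of such cells in the result was not tested. Macrophage markers (8 of 8) averaged 2.55 and 1.98 in DMBA-treated *CD109*-/- skin, against 3.86 and 3.75 in DMBA-treated *CD109*+/+ skin, and likewise their part was not tested.

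*Cyp2c38*, an arachidonate-metabolizing enzyme of the mouse Cyp2c cluster, had the next smallest p. Its log2 signal was -0.45 and -0.49 in DMBA-treated *CD109*-/- skin, against 1.78 and 1.29 in DMBA-treated *CD109*+/+ skin. The groups did not overlap, but the log2 fold change of -2.00 (SE 0.21) did not pass (adjusted p = 0.0653). Without DMBA, arrays labelled *CD109*-/- gave -0.90 and -0.78, against -0.04 and -0.15 from those labelled *CD109*+/+. The lower values thus carried the *CD109*-/- label in untreated skin too, where *Cyp2c38* had the smallest p of the 56 genes, with a log2 fold change of -0.75 (SE 0.21) that did not pass (adjusted p = 1). This rests on the labels of the 2 arrays in doubt. With these exchanged, untreated *CD109*-/- skin had -0.15 and -0.78, against -0.04 and -0.90 in untreated *CD109*+/+ skin, and the groups overlapped.

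**Figure D2:**
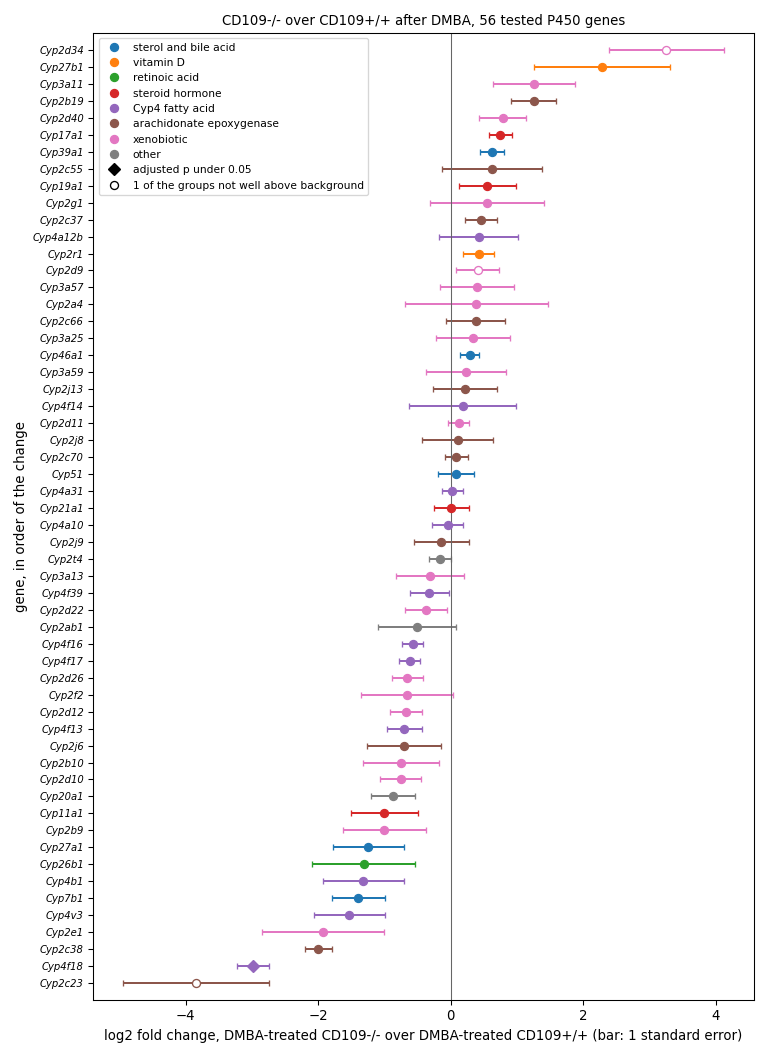
Log2 fold change of DMBA-treated CD109-/- over DMBA-treated CD109+/+ skin (horizontal axis, points with bars of 1 standard error, labels as deposited) for the 56 tested P450 genes in order of the change, coloured by role. Cyp4f18, the diamond at -2.99, is the one gene past an adjusted p of 0.05, and open circles (Cyp2c23, Cyp2d34 and Cyp2d9) mark genes not well above background in 1 of the 2 groups, whose plotted change has no exact size.

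With the labels as deposited, no other fatty acid gene passed between the genotypes after DMBA. *Cyp4f17* and *Cyp4f16*, neighbours of the Cyp4f cluster on chromosome 17, had log2 signals of -1.41 and -1.59 (*Cyp4f17*) and -0.98 and -1.20 (*Cyp4f16*) in DMBA-treated *CD109*-/- skin. They had -0.84 and -0.92 (*Cyp4f17*) and -0.55 and -0.48 (*Cyp4f16*) in DMBA-treated *CD109*+/+ skin. Their log2 fold changes of -0.62 (SE 0.16, adjusted p = 0.107) and -0.58 (SE 0.16, adjusted p = 0.117) did not pass. *Cyp4f39*, which hydroxylates the very long fatty acids of epidermal acylceramides, had 0.60 and -0.24 in DMBA-treated *CD109*-/- skin, against 0.36 and 0.65 in DMBA-treated *CD109*+/+ skin, and the groups overlapped. *Cyp2b19*, the keratinocyte epoxygenase of mouse skin, ran the other way. It had 1.91 and 1.75 in DMBA-treated *CD109*-/- skin, against 0.39 and 0.77 in DMBA-treated *CD109*+/+ skin, a log2 fold change of 1.25 (SE 0.34) that did not pass (adjusted p = 0.113). On the arrays labelled untreated *CD109*-/- *Cyp2b19* had 1.13 and 0.33, against 1.15 and 0.58 on those labelled untreated *CD109*+/+, all below both DMBA-treated *CD109*-/- values. *Cyp2c23*, another epoxygenase, had -7.97 and -6.92 in DMBA-treated *CD109*-/- skin, neither well above background, against -3.15 and -4.06 in DMBA-treated *CD109*+/+ skin. It was at least 4.4-fold lower in *CD109*-/- skin, taking as its level there the dimmest signal that counts as detected, and did not pass (adjusted p = 0.119).

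Of the steroid genes, *Cyp17a1*, a hydroxylase and lyase of androgen synthesis, had 3.24 and 3.52 in DMBA-treated *CD109*-/- skin, against 2.72 and 2.55 in DMBA-treated *CD109*+/+ skin. The arrays labelled untreated *CD109*-/- had 2.72 and 2.75, against 2.77 and 2.65 on those labelled untreated *CD109*+/+. Both values of DMBA-treated *CD109*-/- skin were thus the highest of the 8, and the log2 fold change after DMBA of 0.75 (SE 0.17) did not pass (adjusted p = 0.103). *Cyp11a1*, the side-chain cleavage enzyme that starts steroid synthesis from cholesterol, had -1.77 and -2.58 in DMBA-treated *CD109*-/- skin, against -1.17 and -1.18 in DMBA-treated *CD109*+/+ skin (adjusted p = 0.258). *Cyp21a1*, a hydroxylase of adrenal steroid synthesis, lay between -2.70 and -2.21 on the 8 arrays, and with the labels as deposited its groups overlapped in every comparison of 2 groups. After the exchange of 2 arrays it had -2.21 and -2.29 in untreated *CD109*-/- skin, against -2.70 and -2.67 in untreated *CD109*+/+ skin, without overlap, and did not pass.

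The second comparison asked the same in untreated skin. With the labels as deposited, none of the 56 P450 genes passed in limma, and 0.00542% of all probes did. An unadjusted p under 0.05 was found for 1 of the 56 and for 794 of all 36913 probes. Beside *Cyp2c38*, the smallest p belonged to *Cyp2c55*, *Cyp2ab1*, *Cyp39a1* and *Cyp51*. *Cyp39a1*, an oxysterol hydroxylase of bile acid synthesis, had 1.64 and 1.69 on the arrays labelled untreated *CD109*-/-, against 1.19 and 1.52 on those labelled untreated *CD109*+/+. *Cyp51*, the lanosterol demethylase of cholesterol synthesis, had 0.47 and 0.77 on the arrays labelled untreated *CD109*-/-, against 0.95 and 0.99 on those labelled untreated *CD109*+/+. With the 2 arrays exchanged, the groups overlapped in both genes. *Cyp51* then had 0.99 and 0.77 in untreated *CD109*-/- skin, against 0.95 and 0.47 in untreated *CD109*+/+ skin. *Cyp2ab1* had a log2 fold change of 0.99 (SE 0.59). *Cyp2c55* was not well above background on either array labelled untreated *CD109*+/+, and was at least 1.46-fold higher on those labelled untreated *CD109*-/-. It entered the test only through that group, so that its direction was fixed by the detection filter.

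The third question was the response to DMBA. In *CD109*+/+ skin, with the labels as deposited, *Cyp4f18* rose, by 2.90 on the log2 scale (SE 0.24, adjusted p = 0.0282) over the arrays labelled untreated *CD109*+/+. It was the 1 of 56 P450 genes that passed, while 0.179% of all probes did. This call was lost when either array of any of the 3 other groups was left out, DMBA-treated *CD109*-/-, DMBA-treated *CD109*+/+ or labelled untreated *CD109*+/+, with adjusted p up to 0.211. It held without replicate 1 or replicate 2 labelled untreated *CD109*-/- (adjusted p as low as 0.0493). In *CD109*-/- skin 0 of 56 P450 genes passed in limma, and 0% of all probes did. An unadjusted p under 0.05 was found for 11 of the 56 and for 5385 of all 36913 probes. Both contrasts share arrays with the genotype comparisons, and are not independent of them. The difference between the DMBA effects of the genotypes was tested directly. No P450 gene passed in limma, and 0% of all probes did, while 12 P450 genes and 5852 of all 36913 probes had an unadjusted p under 0.05. *Cyp4f18* had the smallest p there, with a difference of -2.89 on the log2 scale (SE 0.34, adjusted p = 0.185).

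*Cyp7b1*, a hydroxylase that clears oxysterols and starts an alternative route of bile acid synthesis, was higher on every DMBA array than on any untreated one. Its log2 signal was 1.32 and 1.41 in DMBA-treated *CD109*-/- skin and 2.83 and 2.69 in DMBA-treated *CD109*+/+ skin. Of the untreated arrays, the pair labelled *CD109*-/- gave 0.54 and -0.39, and the pair labelled *CD109*+/+ gave 0.39 and -0.44. The DMBA arrays thus did not overlap the untreated ones however the untreated arrays are labelled, and the *CD109*+/+ pair was the highest. Averaged over the genotypes, the log2 fold change of DMBA over untreated was 2.04 (SE 0.28), which is 4.12-fold, but it did not pass with the labels as deposited (adjusted p = 0.119). With the 2 arrays exchanged the estimate was the same, its SE was 0.09, and it passed (adjusted p = 0.00645). Slide row moves with this difference.

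In that averaged comparison 0 of 56 P450 genes passed in limma with the labels as deposited, and 0.0298% of all probes did. An unadjusted p under 0.05 was found for 11 of the 56 and for 4232 of all 36913 probes. Counting signals alone, 4 of 56 P450 genes did not overlap between the 4 DMBA and the 4 untreated arrays, all of them higher after DMBA. Over all probes it was 6.16%, close to the share among these genes. Beside *Cyp7b1* they were *Cyp2d10*, *Cyp4a12b* and *Cyp4a31*. *Cyp4a31* lay between -3.83 and -3.68 after DMBA and between -3.98 and -3.87 untreated, while *Cyp2d10* and *Cyp4a12b* were well above background on only 3 arrays each, all treated with DMBA. Both entered the test only through DMBA-treated *CD109*+/+ skin, so that their direction was fixed by the detection filter, and 2 of the 4 remain without them. *Cyp2d12*, which had the smallest p for DMBA in *CD109*-/- skin, had -3.93 and -3.80 there after DMBA, against -2.54 and -3.09 on the arrays labelled untreated *CD109*-/- (log2 fold change -1.05, SE 0.24, adjusted p = 0.246). *Cyp27a1*, a sterol hydroxylase, had -2.45 and -3.64 in DMBA-treated *CD109*-/- skin, against -0.79 and -1.86 on the arrays labelled untreated *CD109*-/- (adjusted p = 0.278).

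**Figure D3:**
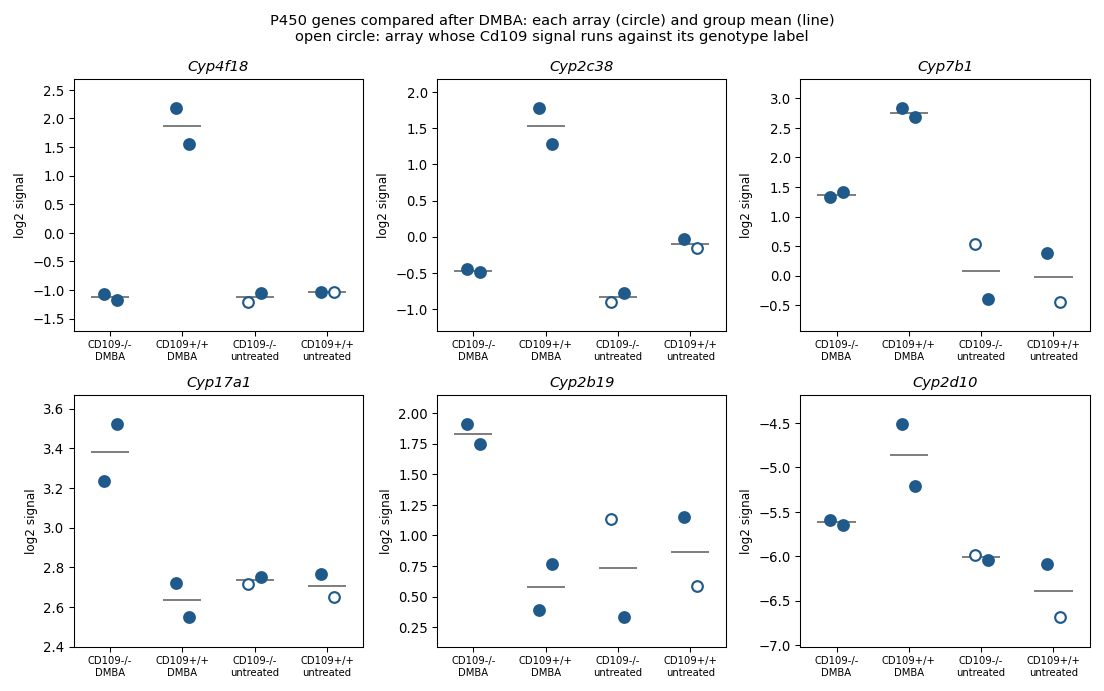
Log2 signal (vertical axes) of 6 P450 genes in the 4 groups, with a circle for each array and a line for the mean of 2 arrays; open circles are the 2 untreated arrays whose Cd109 signal runs against their genotype label. Cyp4f18 is high in DMBA-treated CD109+/+ skin (2.18 and 1.55, against -1.21 to -1.03 elsewhere), whereas Cyp7b1 is above its untreated level in DMBA-treated skin of both genotypes.

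A different group of genes had untreated replicates that lay far apart. *Cyp27b1*, which makes the active hormone form of vitamin D, had -3.36 and -3.29 in DMBA-treated *CD109*-/- skin, against -5.56 and -5.65 in DMBA-treated *CD109*+/+ skin. On the arrays labelled untreated *CD109*-/- it had -4.52 and -1.97, against -4.67 and -2.27 on those labelled untreated *CD109*+/+. In the untreated arrays the higher signal belonged to replicate 2 under either label, the replicate with a low *Cd109* signal. With the labels as deposited, its log2 fold change after DMBA of 2.28 had an SE of 1.03 and did not pass (adjusted p = 0.221). With the 2 arrays exchanged, the SE was 0.15 and the adjusted p 0.00609. In untreated skin it was then 2.47 (SE 0.15, adjusted p = 0.00417), which is 5.56-fold higher where *Cd109* was low. *Cyp2r1*, which hydroxylates vitamin D in the step before, lay between 0.64 and 1.34 on the 8 arrays and passed in no comparison under either arrangement. Its log2 fold change between the genotypes after DMBA was 0.42 (SE 0.23), with the labels as deposited. A dimmer probe of the gene gave -0.45 (SE 0.36), the other direction, and did not pass either.

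*Cyp26b1*, which degrades retinoic acid, was the mirror image. It had 4.45 and 3.95 in DMBA-treated *CD109*-/- skin, against 5.45 and 5.58 in DMBA-treated *CD109*+/+ skin. On the arrays labelled untreated *CD109*-/- it had 5.79 and 4.18, against 6.13 and 4.10 on those labelled untreated *CD109*+/+. The 4 arrays with little *Cd109* signal (*Cd109*-low) thus had 3.95 to 4.45 and the other 4 had 5.45 to 6.13. With the 2 arrays exchanged, the log2 fold change was -1.32 after DMBA (SE 0.21, adjusted p = 0.0226) and -1.82 untreated (SE 0.21, adjusted p = 0.0106). *Cyp4b1*, a fatty acid and xenobiotic hydroxylase, had 1.16 to 1.86 on the *Cd109*-low arrays and 2.68 to 3.18 on the others. *Cyp4v3*, a fatty acid hydroxylase, had -1.42 to -0.10 on the *Cd109*-low arrays and 0.41 to 1.099 on the others. *Cyp2d34*, of the Cyp2d cluster, was well above background on 3 arrays only, all *Cd109*-low, and it was at least 2.95-fold higher in DMBA-treated *CD109*-/- than in DMBA-treated *CD109*+/+ skin. It entered the test only through DMBA-treated *CD109*-/- skin, where it is high, so that its direction there was fixed by the detection filter and its p is not given.

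**Figure D4:**
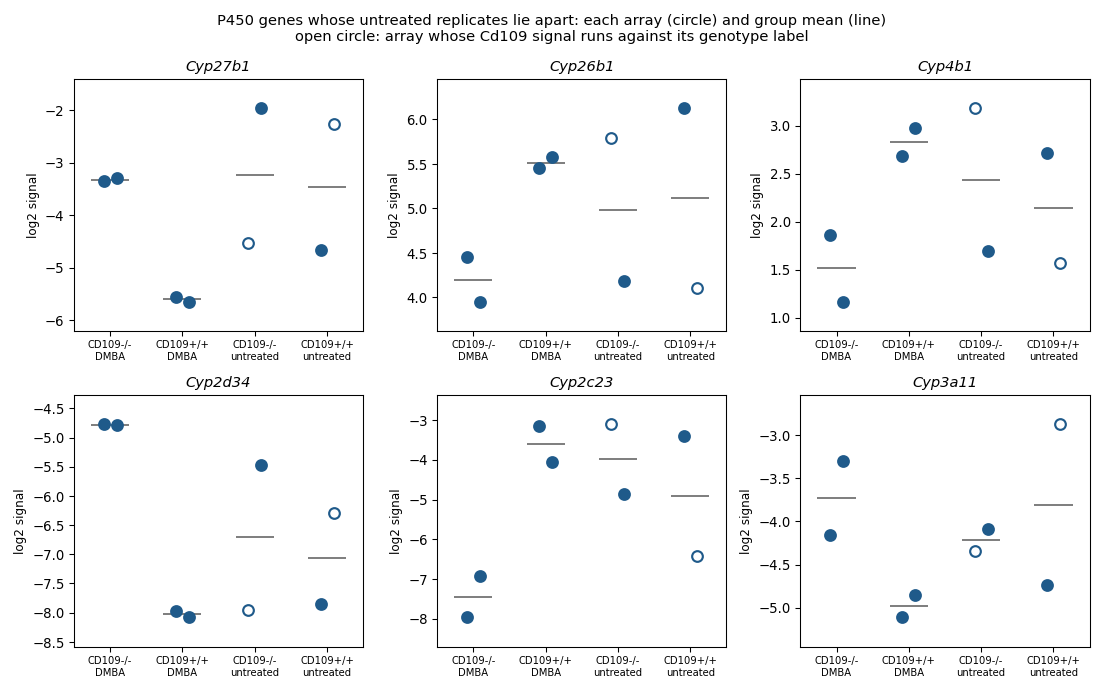
Log2 signal (vertical axes) of 6 P450 genes in the 4 groups, with a circle for each array and a line for the mean of 2 arrays; open circles are the 2 untreated arrays whose Cd109 signal runs against their genotype label. In Cyp27b1 the untreated replicates of either label lie over 2 log2 units apart, at -4.52 and -1.97 and at -4.67 and -2.27, and in every gene shown except Cyp3a11 the open circle of 1 label lies nearer the filled circle of the other.

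With the 2 arrays exchanged, 55 P450 genes were tested. After DMBA, 13 of them passed between the genotypes (23.6%), against 20.6% of all probes, and 12 without *Cyp2d34*, whose direction the filter fixed. The 4 higher in *CD109*-/- skin were *Cyp27b1*, *Cyp2d34*, *Cyp2b19* and *Cyp17a1*, and the 9 lower were *Cyp4f18*, *Cyp7b1*, *Cyp26b1*, *Cyp2c23*, *Cyp2c38*, *Cyp4v3*, *Cyp4b1*, *Cyp4f17* and *Cyp4f16*. In untreated skin 7 passed (12.7%), against 8.96% of all probes. These were *Cyp27b1* and *Cyp2d34*, which were higher, and *Cyp26b1*, *Cyp2a4*, *Cyp7b1*, *Cyp4f14* and *Cyp4b1*, which were lower. Of the untreated arrays, only replicate 2 labelled *CD109*-/- had *Cyp2d34* well above background (-5.47). That gene entered the test through DMBA-treated *CD109*-/- skin. *Cyp2a4*, a steroid hydroxylase, had -3.11 and -2.72 on the *Cd109*-low untreated arrays and -0.03 and -0.79 on the *Cd109*-high untreated ones. *Cyp4f14*, of the leukotriene-hydroxylating Cyp4f cluster, had -6.55 and -6.66 on the *Cd109*-low untreated arrays, neither well above background, and -4.76 and -4.85 on those with a high one, at least 2.23-fold lower on the *Cd109*-low ones. Averaged over treatments, 22 of 55 passed (40%), against 31.2% of all probes, 4 of them higher and 18 lower. Without *Cyp2d34* and *Cyp2c23*, which entered the test only through groups on the side where they are high, it was 20. Among the 18 were *Cyp2e1* (log2 fold change -1.81, SE 0.42, adjusted p = 0.0273), which oxidizes ethanol and small solvents, *Cyp2f2* (-1.05, SE 0.26), which oxidizes naphthalene in the lung, *Cyp11a1*, *Cyp27a1* (-1.06, SE 0.30), *Cyp20a1* (-0.65, SE 0.19), *Cyp4f13* of the Cyp4f cluster (-0.54, SE 0.16), *Cyp2j6* (-0.90, SE 0.22) and *Cyp2j9* (-0.52, SE 0.14). *Cyp3a11*, a major drug-oxidizing enzyme of mouse liver, was among the 4 higher (1.16, SE 0.33). With the labels as deposited, 0.00271% of all probes and 0 of 56 P450 genes passed in this average in limma. An unadjusted p under 0.05 was found for 5 of the 56 and for 4589 of all 36913 probes.

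For DMBA over untreated with the 2 arrays exchanged, 5 of 55 P450 genes passed in *CD109*+/+ skin, against 3.52% of all probes. *Cyp7b1* (log2 fold change 2.30), *Cyp4f18* (2.99) and *Cyp2c38* (2.00) rose there, and *Cyp27b1* and *Cyp2a4* fell by 1.01 and 1.98 on the log2 scale. In *CD109*-/- skin, where 0.0215% of all probes passed, the 1 that did was *Cyp7b1*, which rose by 1.79 (SE 0.13, adjusted p = 0.0441). Averaged over genotypes, *Cyp7b1*, *Cyp4f18* and *Cyp27b1* passed, against 1.58% of all probes. No P450 gene passed in limma in the difference between the DMBA effects, and 0.0350% of all probes did. An unadjusted p under 0.05 was found for 14 of the 55 and for 7828 of all 37139 probes. *Cyp4f18* had the smallest p there (-3.07, SE 0.31, adjusted p = 0.0597). Counting signals alone, 12 of 56 P450 genes did not overlap between the 4 *Cd109*-low arrays and the 4 *Cd109*-high ones, 9 of them lower and 3 higher, against 27.4% of all probes. *Cyp2d34*, again fixed by the filter, was 1 of the 3 higher.

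Markers of other cells moved with these splits. Hair shaft keratins (10 of 12 listed genes measured) averaged 1.14 to 5.92 on the 4 *Cd109*-low arrays and -4.60 to -4.13 on the others. Adipocyte genes (8 of 8) averaged 2.05 to 2.997 on the *Cd109*-low arrays and 3.36 to 4.19 on the others, and skeletal muscle genes (6 of 6) 3.27 to 4.94 and 5.38 to 6.25. The lowest adipocyte and muscle averages were those of DMBA-treated *CD109*-/- replicate 2. That array was also the lowest of the 8 in *Cyp2e1* (0.80, against 2.65 to 5.27 on the others) and in *Cyp26b1*, *Cyp4b1*, *Cyp4v3* and *Cyp27a1*. What part these cells had in the P450 results was not tested.

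The xenobiotic genes with the highest signals varied widely among arrays and passed little. *Cyp2g1*, known from the olfactory epithelium, had 5.56 and 4.56 in DMBA-treated *CD109*-/- skin, against 4.01 and 5.03 in DMBA-treated *CD109*+/+ skin. *Cyp2f2* had 4.84 and 3.80 in DMBA-treated *CD109*-/- skin, against 4.74 and 5.21 in DMBA-treated *CD109*+/+ skin. *Cyp2b10*, a target of the nuclear receptor CAR in liver, had 4.06 and 2.62 in DMBA-treated *CD109*-/- skin, against 3.85 and 4.35 in DMBA-treated *CD109*+/+ skin. In all of these the genotypes overlapped after DMBA. *Cyp3a25* and *Cyp3a57* gave nearly the same signal on each array (1.09 and 1.12 in DMBA-treated *CD109*-/- replicate 1, -0.34 and -0.36 in replicate 2), and whether the probes of such close copies tell them apart was not tested. The same holds for the Cyp2c, Cyp2d, Cyp4a and Cyp4f clusters. *Cyp2j8* and *Cyp2j9*, of the Cyp2j epoxygenases, had 0.61 and -0.25 (*Cyp2j8*) and -0.01 and -0.39 (*Cyp2j9*) in DMBA-treated *CD109*-/- skin. They had -0.13 and 0.27 (*Cyp2j8*) and -0.07 and -0.05 (*Cyp2j9*) in DMBA-treated *CD109*+/+ skin. *Cyp2t4*, without an assigned role here, lay between -3.98 and -3.62 on the 8 arrays.

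Genes that work with these P450 enzymes were read from lists. With the labels as deposited, no gene passed in any of the 7 comparisons among 9 electron donors and partners, 15 tested nuclear receptors that control P450 genes, 20 genes of sterol synthesis beside *Cyp51*, 11 of retinoid metabolism beside *Cyp26b1* and 9 of acylceramide synthesis beside *Cyp4f39*. The median log2 fold changes between the genotypes after DMBA were -0.11, 0.20, 0.22, -0.18 and -0.39 in that order, beside 0.12 over all probes. *Por*, the reductase that feeds the microsomal P450 enzymes, had 4.34 and 3.69 in DMBA-treated *CD109*-/- skin, against 4.09 and 4.16 in DMBA-treated *CD109*+/+ skin, and the groups overlapped. With the 2 arrays exchanged, 3 of the 15 nuclear receptors and 2 of the 11 retinoid genes passed after DMBA, shares close to the 20.6% of all probes. The receptors, all higher in *CD109*-/- skin, were *Vdr*, the vitamin D receptor (log2 fold change 1.47, SE 0.23, adjusted p = 0.0226), *Nr1i3*, which encodes CAR (2.06, SE 0.35), and *Rarg*, a retinoic acid receptor (0.68, SE 0.15). In the retinoid list *Stra6*, the retinol transporter, was higher (6.46, SE 0.75, adjusted p = 0.0152) and *Crabp1*, a retinoic acid binding protein, lower (-2.24, SE 0.26, adjusted p = 0.0151), and the other 9 genes did not pass.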

How the data were processed

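Total RNA of whole skin was labelled with 1 dye and hybridized to Agilent mouse arrays on 1 slide, scanned on 1 day. The authors deposited, per the file headers, intensities from Agilent Feature Extraction 11.5.1.1, linear and background-subtracted but not normalized between arrays, and a value table of these intensities times 1 constant per array, set in a way not given in the sources used here. Control and outlier spots were dropped, spots of a probe averaged as log2, and each array scaled to its 75th percentile. Accessions named 28026 of 29796 RefSeq probes. A probe was tested (36913) if both arrays of some group detected it, with limma 3.58.1 in R 4.3.3, as 4 group means over 8 arrays, with 7 comparisons and Benjamini-Hochberg adjustment over all probes, passing under 0.05. The script was tested on simulated data.

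Precision is limited by the number of arrays. The genes, lists and the exchange of 2 arrays were chosen with earlier results of these data known. Named with values are genes that passed under either arrangement, the 3 highest signals of each role, the 5 smallest p of each comparison, and genes at the detection threshold. Where 1 group was not detected, the fold is a lower bound. The labels do not say that replicate numbers pair samples. Alternatives were quantile normalization, median centring, a normexp background correction (offset 50, on medians), other filters, a fit of the compared arrays alone, a replicate block, the methods' tests, a trend and robust variance, the value table, the mean of a gene's probes, and leaving out arrays.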

Additional observations from a re-analysis of the deposited data

How the results depend on the processing

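Under the deposited labels, 1 P450 gene passed between the genotypes after DMBA. The count was 2 with quantile normalization, median centring, the normexp background or the replicate block, 0 without a filter on dim probes, with only the arrays compared, with the methods' tests or without both arrays in doubt, and 13 with the 2 untreated arrays exchanged. For DMBA in CD109+/+ skin the count was 1, and it was 2 with the normexp background, 0 without a filter, with only the arrays compared, the methods' tests, the replicate block or without both arrays in doubt, and 5 with the arrays exchanged. The other 5 counts were 0 in every alternative except the exchange, which gave 7 between the genotypes untreated, 1 for DMBA in CD109-/- skin, 3 for DMBA averaged over genotypes and 22 between the genotypes averaged over treatments. Leaving out 1 array gave 0 to 0 after DMBA and 0 to 1 for DMBA in CD109+/+ skin. The replicate numbers were not used as pairs, and the labels do not say that they pair samples. Deviations of same-numbered arrays correlated between -0.08 and 0.73. The highest value was that between the 2 untreated labels, where replicate 1 had a high and replicate 2 a low Cd109 signal under either label. The median of all probes between the genotypes after DMBA was 0.12, and -0.04 with quantile normalization, -0.26 with median centring and 0.23 with normexp. In comparisons of 2 groups, the methods' tests took the spread of each probe from the compared arrays alone, adjusted over all probes. With 2 arrays per group such tests have little power, so that their count of 0 tells little.

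With the 2 arrays exchanged, the count after DMBA was 13 (4 higher), and 25 (13 higher) with normexp, 21 (3 higher) with median centring, 0 with only the arrays compared and 2 to 23 without 1 array. Untreated, it was 7, and 13 with normexp or only the arrays compared, 0 with the replicate block and 1 to 18 without 1 array. For DMBA in CD109+/+ skin it was 5, and 1 with only the arrays compared, 2 with the replicate block and 0 to 5 without 1 array. For DMBA in CD109-/- skin it was 1, and 14 with normexp, 0 with median centring, only the arrays compared, the replicate block or 1 array left out. In the difference of the DMBA effects it was 0, and 3 with normexp and 1 with quantile normalization or median centring. For DMBA averaged it was 3, and 5 with normexp and 0 to 4 without 1 array, and between the genotypes averaged it was 22, and 5 with the replicate block and 7 to 26 without 1 array. Of 51 calls of a gene in a comparison under the exchange, 1 turned round: Cyp4f14 averaged over treatments was 0.0138 with normexp, against -0.81. Under the exchange, both untreated arrays with a high Cd109 signal are replicate 1 and both with a low one are replicate 2. The replicate block is then estimated from the DMBA arrays alone, and among untreated arrays it cannot be told apart from the exchanged genotype. Its counts in comparisons that include untreated skin therefore do not measure how stable the calls are. Chosen after seeing the data were the value table at its own scaling and, under the exchange, quantile normalization, median centring, normexp and only the arrays compared. Apart from the main fit and the exchange, these counts are given without the share of all probes that passed in the same setting. They therefore do not tell a change in the P450 genes from a change over the whole array. The causes were not tested.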
